A study of Mus musculus with 12 samples.

Results

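Transcripts of 8 enzymes that make or break down proline, asparagine, glutamate and their partners were followed in 4T1 cells, a mouse mammary carcinoma line, deprived of serine and glycine, irradiated, or both. The 8 genes (Pycr1, Aldh18a1, Oat, Prodh, Asns, Glul, Got1 and Gpt2) were taken by symbol from a table of 20587 genes. All 8 were present and all passed the filter on low values, among 11663 protein-coding genes tested. RNA sequencing covered 4 groups of 3 libraries: Ctr (serine and glycine in the medium, no radiation), -SG (the same medium without both amino acids, no radiation), IR (5 Gy of X-ray radiation with serine and glycine) and IR -SG (5 Gy without them), with RNA taken at 24 h. By the study's methods, the base medium of every group held glutamine, alanine, proline, glutamate, aspartate and asparagine, so the products of most of these enzymes were supplied from outside in each group. All groups come from 1 line and 1 experiment in biological triplicate, and p-values therefore measure the spread between its cultures.

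Proline is made from glutamate in a short mitochondrial pathway. Aldh18a1 (pyrroline-5-carboxylate synthase) reduces glutamate to an intermediate, and Pycr1 (pyrroline-5-carboxylate reductase) turns that intermediate into proline. Oat (ornithine aminotransferase) joins the same intermediate to ornithine, and Prodh (proline dehydrogenase) oxidises proline back to it. Asns (asparagine synthetase) builds asparagine from aspartate with nitrogen from glutamine, and Glul (glutamine synthetase) builds glutamine from glutamate and ammonia. Got1 and Gpt2 are aminotransferases that pass nitrogen between glutamate and aspartate in the cytosol (Got1) or between glutamate and alanine in mitochondria (Gpt2). In mammalian cells short of an amino acid, the kinase Gcn2 (gene Eif2ak4) favours translation of the transcription factor Atf4, which with C/EBP partners binds DNA elements known as CAREs (C/EBP-ATF response elements) in front of genes such as Asns.

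The promoters were read for the letters of that element because they allow the members to be set beside each other by a feature that the expression values did not use. RefSeq promoters (GRCm38.p6), from 250 bases before to 50 bases after each gene's start, were found for all 8 genes. The CARE core was searched as TGATGNAA on both strands, and it occurred in 3.97% of 32851 promoters in RefSeq and in 2.19% of 11963 promoters of tested genes. It occurred in 3 of the 8: Pycr1 (103 to 96 bases before the start), Asns (23 to 16 bases before) and, on the opposite strand, Got1 (102 to 95 bases before). An E-box (CACGTG, the same on both strands and not overlapping the core) occurred in 7.15% of all promoters and in 10% of those of tested genes, and in 1 of the 8, Aldh18a1 (59 to 54 bases before the start). Capitals below mark the match, each stretch is written 5′ to 3′ on the gene's strand, and all of them end before the RefSeq start. GENCODE M21 places the start of Asns further upstream, so the stretch of Asns lies inside the gene's GENCODE span given below.
Pycr1, CARE core, chr11:120643824-120643871, minus strand: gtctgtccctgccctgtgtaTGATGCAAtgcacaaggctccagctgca
Asns, CARE core, chr6:7693210-7693252, minus strand: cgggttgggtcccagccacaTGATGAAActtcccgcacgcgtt
Got1, CARE core on the opposite strand, chr19:43524680-43524727, minus strand: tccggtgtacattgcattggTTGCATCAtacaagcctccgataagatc
Aldh18a1, E-box, chr19:40588497-40588542, minus strand: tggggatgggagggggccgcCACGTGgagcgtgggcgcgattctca
The letters TGATGNAA were not in the windows of Aldh18a1, Oat, Prodh, Glul and Gpt2. A match is a description of these letters only, and elements outside the window were not searched.

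Reads in genes ranged from 12540160 to 20066659 per library (median 16718006). Epithelial markers were high, which goes with the label of a carcinoma line but does not identify 4T1 or a mammary origin. Krt8, Krt18, Epcam, Cdh1, Krt7 and Krt14 summed to between 59200 and 90300 normalized counts in every library. The sum was higher without serine and glycine (78500 to 90300) than with them (59200 to 62800). Krt14 had the widest range of the 6, from a mean of 3290.0 in Ctr to 16300 in -SG, and Krt18 went the other way, from 15300 in Ctr to 14500 in -SG and from 13700 in IR to 12100 in IR -SG. Of 5 leukocyte markers only Ptprc and Cd68 were in the table, summing to 63.3 to 84.5 normalized counts (Ctr), 39.9 to 58.8 (-SG), 109 to 114 (IR) and 67.9 to 87.2 (IR -SG), with Ptprc at most 6.3 in any library. The 4 of 5 fibroblast markers in the table summed to 202 to 317 (Ctr), 252 to 331 (-SG), 488 to 525 (IR) and 413 to 465 (IR -SG), most of it Pdgfra. Pdgfra went from a mean of 187 in Ctr to 444 in IR, while Col1a2 went from 40 to 16.8 and Dcn from 8.62 to 1.39, and in any library Col1a1 held at most 50.1 and Col1a2 at most 63.2. The 2 of 3 endothelial markers in the table summed to at most 16.8. The part of these markers' cells in the changes below was not tested. Replicate 6 of -SG stood apart from its group, with a chi-square per gene of 7.53 and 11.9 against replicates 4 and 5, while the other pairs of replicates lay between 1.49 and 3.26. The 8 enzymes' changes that involve -SG are therefore also given without it, and for the other genes it is said below which named calls changed when it was left out, a setting added for them after the data were seen. Normalized counts are reads divided by 1 size factor per library, and fold changes are on the scale of log2(normalized count + 1). A gene rose or fell where its adjusted p in limma was under 0.05 (Benjamini-Hochberg over all tested genes). In bulk RNA, less RNA per cell and fewer cells of one kind cannot be told apart.

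Without serine and glycine, the 8 enzymes separated into 4 that rose and 4 that fell. Gpt2, Pycr1, Asns and Aldh18a1 rose, that is, mitochondrial alanine aminotransferase, both steps from glutamate to proline, and asparagine synthetase. Prodh, which breaks proline down, Got1, Oat and Glul fell. Of the enzymes with the CARE core in their promoter window, Pycr1 and Asns rose and Got1 fell. Of those without it, Aldh18a1 and Gpt2 rose and Oat, Prodh and Glul fell. A part of the element in these changes was not tested. Over all tested genes 30% rose and 28.6% fell in this comparison. The median absolute log2 fold change was 0.84 over the 8 enzymes and 0.23 over all tested genes, and the medians with sign were 0.24 and 0.01. The 8 were chosen with earlier results of these data known. Setting them beside all tested genes, here and below, is therefore a description only. For none of the 8 did the -SG libraries overlap with those of Ctr. How many of all tested genes lacked overlap was not counted, so it cannot be said whether this separation is particular to the 8. Without -SG replicate 6, the log2 fold changes of Pycr1, Aldh18a1, Prodh, Got1 and Glul were 1.77, 0.70, -0.99, -0.43 and -0.22, each past the test.

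Pycr1 makes the last step of proline synthesis. Its 3 Ctr libraries held 212, 229.6 and 205 normalized counts, and its -SG libraries held 728, 743 and 749. The mean went from 215 ± 12.7 (SD, n = 3) to 740.1 ± 10.8, which gave a log2 fold change of 1.78 with an SE of 0.08 (adjusted p = 1.3e-11). This placed it at percentile 98.8 of all tested genes. The ± beside log2 fold changes is the SE from here on. Aldh18a1, the step before it, started far higher, at 3397, 3529.8 and 3361 normalized counts in Ctr and 5579, 5533 and 5606 in -SG. It rose by less, with a log2 fold change of 0.70 ± 0.03 (adjusted p = 2.8e-11). Both proline-forming enzymes thus rose in all 3 libraries, Pycr1 3.43-fold and Aldh18a1 1.63-fold.

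Prodh, the enzyme that begins proline oxidation, went the other way. It held 752, 776 and 798 normalized counts in Ctr and 403, 377 and 392 in -SG, and fell by 0.99 on the log2 scale (SE 0.06, adjusted p = 1.7e-09). Only 1.8% of tested genes had a lower value in this comparison. Oat, which shares the intermediate with ornithine, held 2248, 2185 and 2175 in Ctr and 1767, 1729 and 1853 in -SG, a log2 fold change of -0.31 ± 0.04 (adjusted p = 3.4e-06). The fall of Oat was smaller than that of Prodh, and without -SG replicate 6, which held its highest -SG value, it was -0.33.

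Asns, the asparagine-forming enzyme, had the highest counts of the 8 in Ctr. It held 4874, 5015 and 4759.6 normalized counts in Ctr and 10122, 10077 and 10630.3 in -SG, a log2 fold change of 1.07 ± 0.03 (adjusted p = 2.1e-13). Gpt2, whose change had a confidence interval overlapping that of Pycr1, went from 1059, 966 and 932 normalized counts to 3449, 3428 and 3580.5 (log2 fold change 1.82 ± 0.04, adjusted p = 1.3e-14). Asns and Gpt2 were higher in every -SG library than in any Ctr library, and -SG replicate 6 was the highest for each. Without it the log2 fold changes were 1.05 for Asns and 1.80 for Gpt2.

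Got1 and Glul fell in the same cells, by less. Got1, the cytosolic aspartate aminotransferase, held 1600.2, 1660.2 and 1699 normalized counts in Ctr and 1305, 1157 and 1234 in -SG (log2 fold change -0.43 ± 0.04, adjusted p = 5.0e-07). Glul, which makes glutamine, held 813, 808 and 763 in Ctr and 686, 678 and 684 in -SG (log2 fold change -0.22 ± 0.04, adjusted p = 5.5e-04). The -SG libraries of Glul all lay below those of Ctr. Got1 thus fell while Gpt2, the other aminotransferase, rose.

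**Figure D1:**
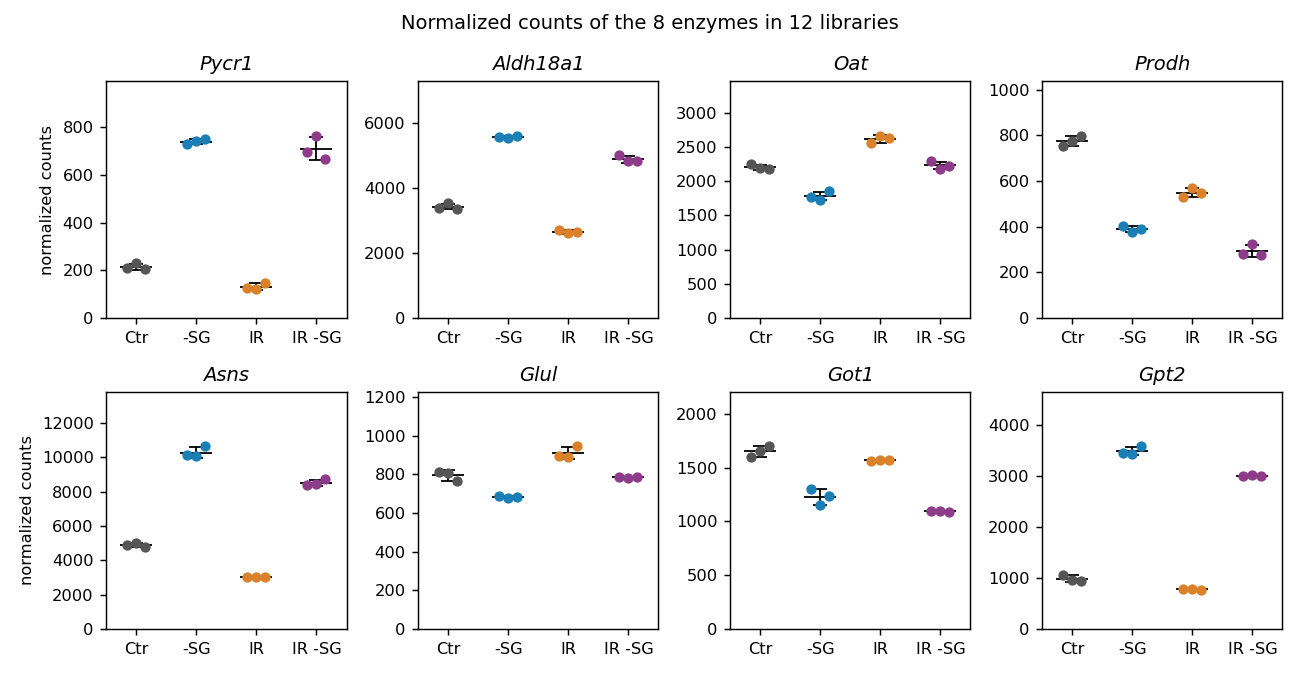
Normalized counts of each enzyme (vertical axes, from 0) in the 12 libraries by group (points), with the mean and SD of 3 libraries (bars). Pycr1, Aldh18a1, Asns and Gpt2 are high in -SG and IR -SG and lowest in IR, Prodh and Got1 are lowest in IR -SG, and Oat and Glul are highest in IR and lowest in -SG.

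Radiation with serine and glycine present lowered 5 of the 8 enzymes and raised 2. Pycr1, Asns, Prodh, Aldh18a1 and Gpt2 fell, Oat and Glul rose, and Got1 did not pass the test. Over all tested genes 28.9% rose and 24.9% fell after radiation. The median log2 fold change was -0.35 over the 8 enzymes and 0.00 over all tested genes. The comparisons of -SG, IR and IR -SG with Ctr share the same 3 control libraries, so their values are given side by side only.

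Asns and Pycr1 had the lowest log2 fold changes of the 8 after radiation. Asns held 3019, 3027 and 3021 normalized counts in IR, a log2 fold change of -0.69 ± 0.03 (adjusted p = 1.0e-10). Pycr1 held 127, 123 and 149, a log2 fold change of -0.70 ± 0.08 (adjusted p = 1.7e-06). For each of these enzymes, under 1% of tested genes lay lower (0.54% for Asns and 0.52% for Pycr1). Aldh18a1, at 2703, 2606 and 2643 normalized counts in IR, fell by 0.37 on the log2 scale (SE 0.03, adjusted p = 1.2e-07). Gpt2, at 786, 785 and 765, fell by 0.34 (SE 0.04, adjusted p = 1.0e-05). The 4 enzymes that rose in -SG therefore each fell in IR, and none of their IR libraries reached the Ctr range. The share of all tested genes with IR libraries outside the Ctr range was not counted.

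Prodh fell after radiation too, to 530.4, 571 and 547 normalized counts (log2 fold change -0.50 ± 0.06, adjusted p = 9.0e-06). It was thus lower than in Ctr in both single treatments. Oat held 2554, 2663 and 2635 normalized counts in IR and rose by 0.25 on the log2 scale (SE 0.04, adjusted p = 4.5e-05). Glul held 893, 889 and 944 and rose by 0.19 (SE 0.04, adjusted p = 0.0018). Oat and Glul had fallen in -SG, so their direction was opposite in the single treatments. Got1 lay at 1567, 1573 and 1573 normalized counts in IR, below all 3 Ctr libraries, but its log2 fold change of -0.07 did not pass the test (95% confidence interval -0.17 to 0.02, adjusted p = 0.18).

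**Figure D2:**
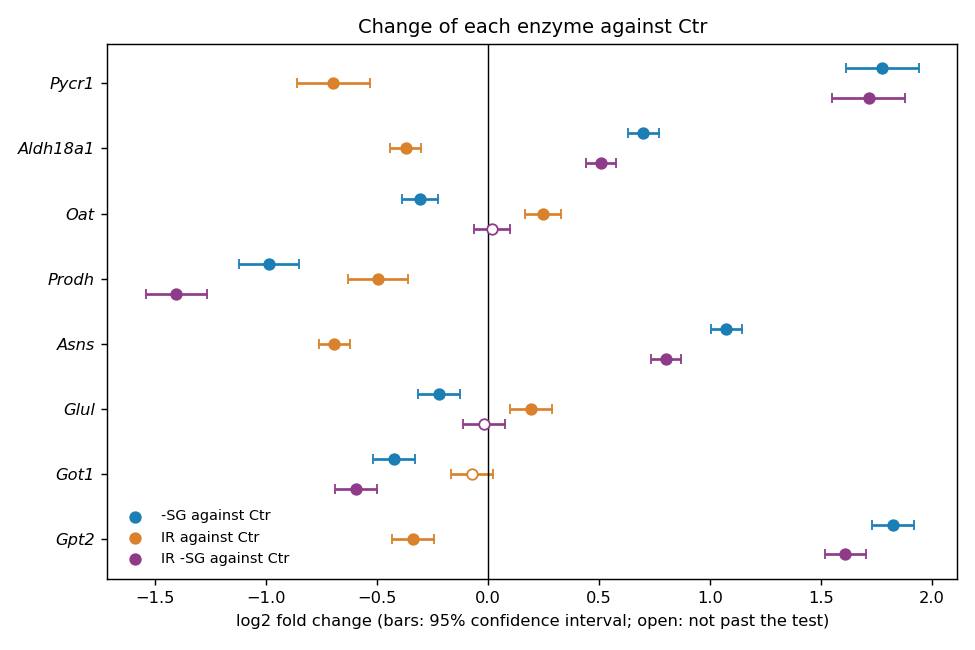
Log2 fold change of each enzyme against Ctr (horizontal axis) in -SG, IR and IR -SG, with 95% confidence intervals from limma; open points did not pass the test. Pycr1, Aldh18a1, Asns and Gpt2 lie above 0 in both groups without serine and glycine and below 0 in IR, and Prodh lies below 0 in all 3 groups (-0.99, -0.50 and -1.40).

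In cells given both treatments, 4 of the 8 were higher than in Ctr and 2 were lower, while 37.2% of all tested genes rose and 32.5% fell. Pycr1 (697, 764 and 669 normalized counts) was 3.28-fold and Gpt2 (3003, 3011 and 3009.9) 3.05-fold as high as in Ctr. Asns, at 8395, 8439 and 8715 normalized counts, was 1.74-fold as high. Aldh18a1, at 5002, 4824 and 4825, was 1.42-fold as high. The adjusted p of these 4 rises lay between 3.4e-14 for Gpt2 and 7.1e-10 for Aldh18a1.

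Prodh reached its lowest level of the study after both treatments, 279.5, 323 and 276 normalized counts, a log2 fold change of -1.40 ± 0.06 against Ctr (adjusted p = 1.3e-11). Only 0.57% of tested genes lay lower. Got1 also reached its lowest level, at 1097, 1100.1 and 1088 (log2 fold change -0.59 ± 0.04, adjusted p = 5.1e-09). Oat and Glul, by contrast, overlapped with Ctr. Oat held 2290.0, 2180.4 and 2219 normalized counts (log2 fold change 0.02, 95% confidence interval -0.06 to 0.10, adjusted p = 0.70). Glul held 787, 781 and 787 (log2 fold change -0.02, 95% confidence interval -0.11 to 0.08, adjusted p = 0.74).

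Within irradiated cells, removal of serine and glycine again split the enzymes 4 and 4, in the directions seen without radiation. Of all tested genes 28.9% rose and 28.1% fell between IR and IR -SG. Pycr1 rose 5.33-fold (log2 fold change 2.41 ± 0.08, adjusted p = 5.5e-13), at percentile 99.8 of all tested genes. Gpt2 rose 3.86-fold (1.95 ± 0.04 on the log2 scale, adjusted p = 1.1e-14) and Asns 2.82-fold (1.49 ± 0.03, adjusted p = 7.8e-15). Aldh18a1 rose 1.84-fold (0.88 ± 0.03, adjusted p = 2.4e-12). Prodh, Got1, Oat and Glul fell by 0.91, 0.52, 0.23 and 0.21 on the log2 scale, with adjusted p between 6.4e-09 for Prodh and 8.3e-04 for Glul. No library of IR -SG overlapped with any of IR for any of the 8. The share of all tested genes without such overlap was not counted.

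Within cells lacking serine and glycine, radiation lowered 5 enzymes and raised 2, while 23.8% of all tested genes rose and 19.3% fell. The 5 were Prodh (log2 fold change -0.42 ± 0.06, adjusted p = 9.0e-05), Asns (-0.27 ± 0.03, adjusted p = 9.1e-06), Gpt2 (-0.21 ± 0.04, adjusted p = 0.0012), Aldh18a1 (-0.19 ± 0.03, adjusted p = 2.2e-04) and Got1 (-0.17 ± 0.04, adjusted p = 0.0063). Oat (0.32 ± 0.04, adjusted p = 6.6e-06) and Glul (0.20 ± 0.04, adjusted p = 0.0019) rose. Pycr1 did not pass the test: its libraries overlapped, and its log2 fold change was -0.06 (95% confidence interval -0.23 to 0.10, adjusted p = 0.55). Each call held without -SG replicate 6, where the values were -0.42 for Prodh, -0.25 for Asns, -0.19 for both Gpt2 and Aldh18a1, -0.17 for Got1, 0.35 for Oat and 0.20 for Glul.

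The difference between the radiation effects in both media was tested as an interaction, positive where the log2 fold change after radiation was higher without serine and glycine. It was positive for 3 of the 8 enzymes and negative for none, against 4.2% of all tested genes with a positive and 7.17% with a negative interaction. For Pycr1 it was 0.64 (95% confidence interval 0.40 to 0.87, adjusted p = 0.0013): radiation was followed by a fall to 0.62-fold of Ctr with serine and glycine and by 0.96-fold of -SG without them. For Asns the interaction was 0.42 (0.32 to 0.52, adjusted p = 2.4e-05), from falls to 0.62-fold with and 0.83-fold without the amino acids. For Aldh18a1 it was 0.18 (0.08 to 0.28, adjusted p = 0.018), and this call was lost under 4 of 24 other settings. They were the fits without Ctr replicate 2 (Aldh18a1 0.16, adjusted p = 0.0594), without IR replicate 2 (0.17, adjusted p = 0.0524) and without IR -SG replicate 4 (0.16, adjusted p = 0.0556), and the fit with a replicate block (0.18, adjusted p = 0.0583). Pycr1 and Asns kept their calls in all 24. Gpt2 had an interaction of 0.13 that did not pass the test (-0.01 to 0.26, adjusted p = 0.22). The intervals of the other 4 were -0.12 to 0.27 for Prodh, -0.04 to 0.19 for Oat, -0.13 to 0.14 for Glul and -0.23 to 0.04 for Got1. Without -SG replicate 6 the interactions of Pycr1, Asns and Aldh18a1 were 0.64, 0.45 and 0.185, each past the test.

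**Figure D3:**
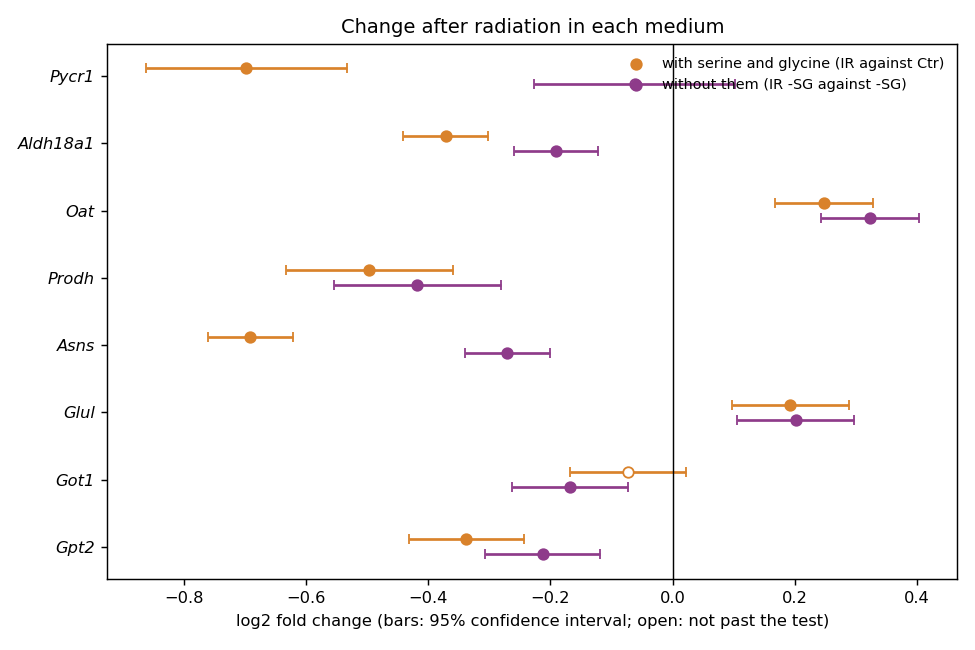
Log2 fold change after 5 Gy (horizontal axis) of each enzyme with serine and glycine (IR against Ctr) and without them (IR -SG against -SG), with 95% confidence intervals from limma; open points did not pass the test. The intervals of Pycr1, Aldh18a1 and Asns are apart in the 2 media, while those of Oat, Prodh, Glul, Got1 and Gpt2 overlap.

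Pairs of enzymes can also be set against each other within each library, which needs no scaling between libraries. Of the pairs below, only Pycr1 and Prodh make and break down the same amino acid. The ratio of Pycr1 to Prodh normalized counts was 0.278 ± 0.020 (SD, n = 3) in Ctr and 0.242 ± 0.028 in IR, and these ranges overlapped. In -SG it reached 1.89 ± 0.08 and in IR -SG 2.43 ± 0.07, where all 3 libraries lay above all those of -SG. The order of synthesis and breakdown transcripts in counts was thus turned in both groups without serine and glycine, although such ratios of counts also carry the lengths of both transcripts. Aldh18a1 to Oat, the glutamate and the ornithine entry to the proline intermediate, went from 1.56 ± 0.05 (Ctr) to 3.13 ± 0.09 (-SG), 1.01 ± 0.04 (IR) and 2.19 ± 0.02 (IR -SG), with no overlap between any of the 4 groups. Asns to Glul followed the same order of groups, at 6.14 ± 0.13 (Ctr), 15.1 ± 0.42 (-SG), 3.33 ± 0.11 (IR) and 10.8 ± 0.21 (IR -SG). Gpt2 to Got1 was 0.597 ± 0.058 in Ctr and 2.84 ± 0.17 in -SG, and the irradiated cells had 0.496 ± 0.008 with and 2.75 ± 0.02 without the amino acids. The ranges of this last pair overlapped between -SG and IR -SG and not between Ctr and IR.

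**Figure D4:**
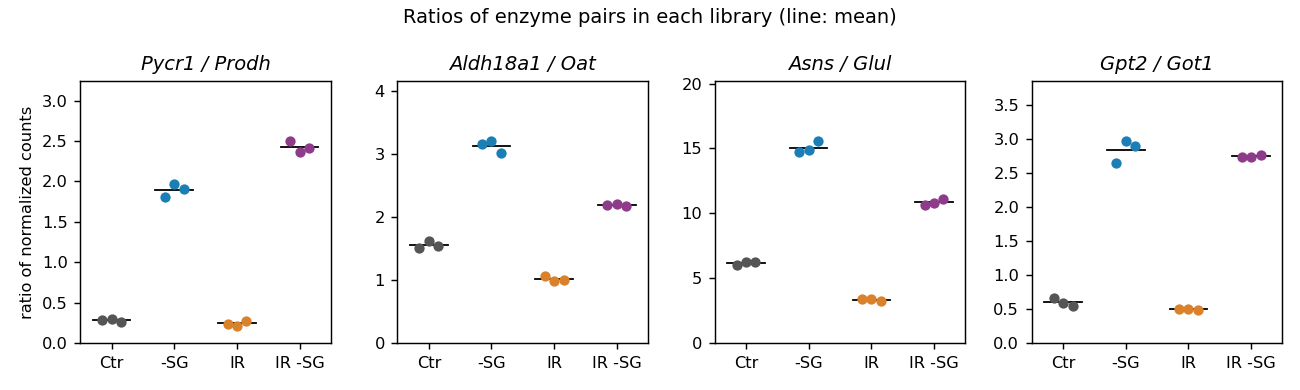
Ratio of normalized counts of 4 enzyme pairs (vertical axes, from 0) in each of the 12 libraries (points) with the group mean (line). Pycr1/Prodh is highest in IR -SG (2.37 to 2.5), Aldh18a1/Oat and Asns/Glul are highest in -SG, and Gpt2/Got1 splits by medium.

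Per kilobase of annotated exon, Asns was the most abundant of the 8 in Ctr at 1785 ± 46.7 normalized counts per kb (SD, n = 3). It was followed by Oat (933 ± 16.7), Aldh18a1 (842 ± 21.8), Got1 (651 ± 19.5), Glul (239 ± 8.23), Gpt2 (175 ± 11.7), Prodh (99.4 ± 2.94) and Pycr1 (54.8 ± 3.23), and no neighbours in this order overlapped. Without serine and glycine, Aldh18a1 passed Oat, Gpt2 passed Got1 and Glul, and Pycr1 passed Prodh, both with and without radiation. In IR, Asns (1105 ± 1.55 per kb) and Oat (1109 ± 23.8) overlapped, and the others kept the order of Ctr without overlap. Pycr1 remained below Glul in every group, at 188 ± 2.74 per kb in -SG beside 205 ± 1.23 for Glul.

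The share of each enzyme's variation (sum of squares of log2 values over the 12 libraries) that lay between media and between radiation states differed among the 8. The medium accounted for 97.6% in Gpt2, 94.2% in Pycr1, 90.6% in Got1, 87.5% in Aldh18a1, 85.5% in Asns and 79.9% in Prodh. In Oat and Glul it was divided almost evenly, with 45.4% and 52.2% for the medium and 51.4% and 44.1% for radiation. Spread within groups made up at most 3.75%, in Glul.

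The genes lie on 7 chromosomes in GENCODE M21 (GRCm38), and 2 of them, Aldh18a1 (chr19:40550257-40588463) and Got1 (chr19:43499752-43524605), on the same one. Pycr1 lies at chr11:120635712-120643769, Oat at chr7:132557478-132576398, Prodh at chr16:18060357-18090203 and Asns at chr6:7675169-7693254, all on the minus strand like the pair on chromosome 19. Glul (chr1:153899944-153909723) and Gpt2 (chr8:85492576-85527560) lie on the plus strand. Oat lies inside the annotated span of Fgfr2 on the same strand with no shared exonic base, and Fgfr2 had log2 fold changes of -0.59 in -SG and 0.35 in IR, beside -0.31 and 0.25 for Oat. Prodh overlaps Dgcr6 on the opposite strand, also with no shared exonic base, and Dgcr6 had 0.04 and -0.12 in the same comparisons, beside -0.99 and -0.50 for Prodh. Glul shares 116 exonic bases with Teddm2, which held group means of 0.65 to 3.53 normalized counts. The strand setting of the counting is not given in the sources used here, and the part of these neighbours in the members' counts was not tested.

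Of 3 close relatives of the 8 described here, 2 fell in -SG, where 28.6% of all tested genes fell. They were Got2, the mitochondrial counterpart of Got1 (log2 fold change -0.24, adjusted p = 1.1e-05), and Asnsd1 (-0.51, adjusted p = 3.2e-04). Asnsd1 carries an asparagine synthetase domain. Gpt, the cytosolic counterpart of Gpt2, held 82.6 ± 7.04 normalized counts in Ctr and 83.9 ± 2.91 in -SG (log2 fold change 0.03, adjusted p = 0.87). After radiation, Asnsd1 alone of the 3 fell (-0.29, adjusted p = 0.021), beside 24.9% of all tested genes. Got2 (0.01) and Gpt (0.06) did not pass the test. The rise of Gpt2 in -SG therefore stood beside a value near 0 for Gpt. After both treatments Got2 (-0.31) and Asnsd1 (-0.45) were lower than in Ctr, with adjusted p of at most 7.1e-04. The share of all tested genes that fell there was 32.5%. Within irradiated cells Got2 (-0.32) fell without serine and glycine, as did 28.1% of all tested genes. Asnsd1 (-0.16) and Gpt (-0.01) did not pass the test. Between IR -SG and -SG the values were -0.06 for Got2, 0.06 for Asnsd1 and 0.02 for Gpt, and these did not pass the test. Of all tested genes 23.8% rose and 19.3% fell between these groups. In the interaction the values of the 3 were -0.08, 0.35 and -0.04, and these did not pass the test either. Over all tested genes it was positive in 4.2% and negative in 7.17%. Without -SG replicate 6 the interaction of Asnsd1 passed the test (0.48, adjusted p = 0.0078). Pycr3, Prodh2, Got1l1 and Lgsn were not analysed here.

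The lists that follow are descriptions, and the share of all tested genes that rose and fell in each comparison, given above, is the background of their counts. Among 10 further genes of proline and ornithine metabolism, 4 rose and 4 fell in -SG (median log2 fold change -0.06), where 30% of all tested genes rose and 28.6% fell. Arg1, which splits arginine to ornithine (1.71), P4ha3 (0.92) and P4ha1 (0.22), both subunits of the collagen prolyl hydroxylases, rose furthest. In Ctr, Arg1, Arg2 and P4ha3 held means of only 14.4, 17.9 and 36.9 normalized counts, where the filter on low values was 10. Odc1, which commits ornithine to polyamines (-0.88), Aldh4a1, the second enzyme of proline breakdown after Prodh (-0.61), and Pepd, a dipeptidase that frees proline (-0.19), fell furthest. Aldh4a1 and Prodh thus both fell in -SG. In IR, 5 of the 10 rose and 4 fell (median 0.13), with Arg1 (1.80), P4ha3 (1.51) and Arg2 (1.21) furthest up and Odc1 (-0.21), Pepd (-0.20) and P4ha1 (-0.13) furthest down. After both treatments 5 rose and 3 fell, with Arg1 at 2.52, P4ha3 at 2.01 and Azin1, an antizyme inhibitor, at 0.25, and with Odc1 at -1.04, Pepd at -0.27 and Prep at -0.22. Radiation without serine and glycine was followed by 4 rises and 2 falls, the rises in P4ha3 (1.09), Aldh4a1 (0.87) and Arg1 (0.81) and the falls in Odc1 (-0.17) and Prep (-0.10). Against IR, the cells given both treatments had 4 rises and 4 falls, led by Arg1 (0.73), P4ha3 (0.50) and P4ha1 (0.25) and by Arg2 (-1.29), Odc1 (-0.84) and Aldh4a1 (-0.36). Arg1 alone had an interaction past the test (-0.99, adjusted p = 0.025). With -SG replicate 6 left out, the fall of Prep between IR -SG and -SG lost its call (-0.08, adjusted p = 0.0504), and the interaction of Arg2 passed the test (-1.01, adjusted p = 0.049).

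Of 15 genes of asparagine and aspartate metabolism, 2 rose and 9 fell in -SG (median -0.22), beside 30% and 28.6% of all tested genes. The 2 were Nars, the cytosolic asparaginyl-tRNA synthetase (0.77), and Mdh1, cytosolic malate dehydrogenase (0.14). Nars2, the mitochondrial counterpart of Nars (-1.08), Cad, which begins pyrimidine synthesis (-0.73), and Asnsd1 (-0.51) fell furthest, so Asns moved with Nars and against most genes of its list. In IR, 3 rose and 7 fell, with Adssl1 (1.17), Ass1, which joins citrulline and aspartate (0.80), and Mdh1 (0.23) up and Cad (-0.36), the aspartyl-tRNA synthetase Dars (-0.33) and Nars2 (-0.29) furthest down. Adssl1 held a mean of only 23.5 normalized counts in Ctr. After both treatments 4 rose and 11 fell (median -0.31), led by Adssl1 (0.80), Nars (0.57) and Ass1 (0.55) and by Nars2 (-1.25), Cad (-1.06) and Asl (-0.49). Against -SG, 3 were higher in IR -SG (Ass1 0.54, Adssl1 0.50, Mdh1 0.21) and 5 were lower, furthest Cad (-0.32), Dars (-0.21) and Nars (-0.19). Within irradiated cells, Nars (0.81) and Mdh1 (0.12) rose and 9 fell, furthest Nars2 (-0.95), Cad (-0.69) and Asrgl1, an asparaginase (-0.55).

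Of 19 tested genes of glutamate and glutamine metabolism, 7 rose and 8 fell in -SG (median 0.06), beside 30% and 28.6% of all tested genes. Oplah, which opens 5-oxoproline to glutamate (0.88), Psat1, the aminotransferase of serine synthesis (0.71), and Ctps2, a CTP synthase (0.42), rose furthest. Oplah held a mean of only 11.7 normalized counts in Ctr. Kyat3, an aminotransferase of kynurenine (-1.22), and the purine enzymes Ppat (-0.63) and Pfas (-0.47), which use the amide of glutamine, fell furthest. In IR, 4 rose and 8 fell, with Oplah (0.90), Nadsyn1 (0.27) and Qars (0.22) up and Kyat3 (-1.02), Gclm, a subunit of the first enzyme of glutathione synthesis (-0.49), and Psat1 (-0.40) down. Psat1, like Pycr1, Aldh18a1, Asns and Gpt2, thus rose in -SG and fell in IR. After both treatments 6 rose and 8 fell, with Oplah at 1.20, Ctps2 at 0.49 and Psat1 at 0.39, and with Kyat3 at -1.96, Ppat at -0.72 and Pfas at -0.68. Between IR -SG and -SG, 4 rose (furthest Qars 0.29, Gfpt1 0.24 and Nadsyn1 0.19) and 7 fell (furthest Kyat3 -0.74, Psat1 -0.32 and Gclm -0.30). Between IR -SG and IR, 5 rose (furthest Psat1 0.79, Ctps2 0.41 and Gclm 0.37) and 6 fell (furthest Kyat3 -0.93, Ppat -0.47 and Ctps -0.46). Gclm had the only interaction past the test (0.19, adjusted p = 0.047). Leaving out -SG replicate 6, the rise of Nadsyn1 between IR -SG and -SG lost its call (0.15, adjusted p = 0.11). Other calls within the counts above also changed. Bcat2, Gfpt1 and Gmps lost theirs in -SG against Ctr. Between IR -SG and -SG, Bcat2 lost its call and Gclc, Ppat and Gmps gained one. Gfpt1 in IR against Ctr and Gclc between IR -SG and IR gained a call as well.

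**Figure D5:**
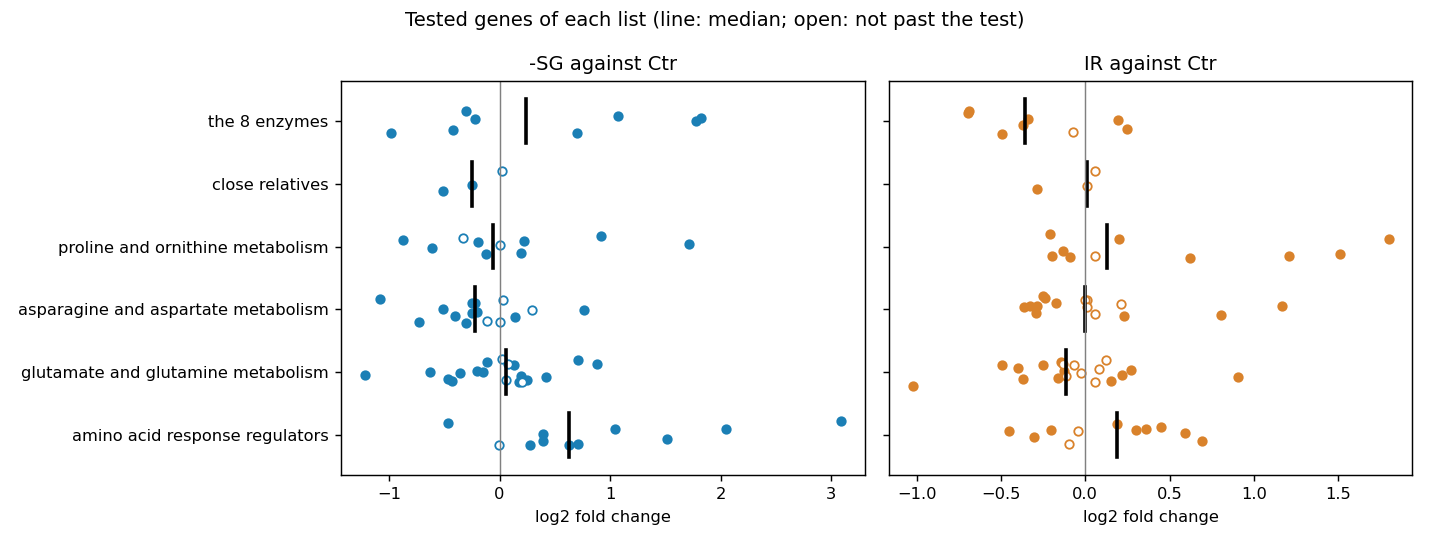
Log2 fold change (horizontal axes) of the 8 enzymes and of the genes described here of 5 further lists in -SG and IR against Ctr; each point is a gene, open points did not pass the test, the black line is the list's median, and the close relatives also stand in the metabolic lists. In -SG the 8 enzymes lie on both sides of 0, from -0.99 (Prodh) to 1.82 (Gpt2), and in IR their median is -0.35.

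Transcripts of the regulators of the amino acid response were measured beside the enzymes. Of 11 tested, 9 rose and 1 fell in -SG (median 0.63), beside 30% and 28.6% of all tested genes. The transcription factors Atf5 (3.09), Ddit3 (1.51), Atf3 (1.04), Cebpg (0.71), Cebpb (0.40) and Atf4 (0.39), the pseudokinase Trib3 (2.05) and the eIF2 alpha kinases Eif2ak3 (0.63) and Eif2ak2 (0.28) rose, Eif2ak4 fell (-0.46), and Eif2ak1 did not pass the test (-0.01). Atf4 went from 6117 ± 158 normalized counts in Ctr to 8037 ± 498 in -SG.

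After radiation 6 of the regulators rose and 3 fell (median 0.19), beside 28.9% and 24.9% of all tested genes. Atf4 (-0.45, to 4472 ± 81.3 normalized counts), Trib3 (-0.30) and Cebpg (-0.20) fell, as Pycr1, Asns, Aldh18a1 and Gpt2 did. Eif2ak3 (0.69), Eif2ak2 (0.59), Atf5 (0.45), Ddit3 (0.36), Cebpb (0.30) and Atf3 (0.19) rose, while Eif2ak4 (-0.10) and Eif2ak1 (-0.04) did not pass the test. The 4 enzymes that rose in -SG and fell in IR thus shared both directions with Atf4, Trib3 and Cebpg and not with Atf5, Ddit3, Atf3 and Cebpb.

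After both treatments 7 regulators were higher than in Ctr and 2 were lower (median 0.65), beside 37.2% and 32.5% of all tested genes. Atf4 was lower (-0.19, at 5351 ± 107 normalized counts, adjusted p = 4.6e-04), as was Eif2ak4 (-0.34), in the same cells in which Pycr1 was 3.28-fold as high as in Ctr. Atf5 (2.78), Trib3 (1.32), Ddit3 (1.32), Eif2ak3 (1.12), Eif2ak2 (0.66), Atf3 (0.65) and Cebpg (0.37) were higher, and Cebpb (0.11) and Eif2ak1 (0.05) did not pass the test. Within irradiated cells Atf4 rose without serine and glycine (0.26), as did Atf5 (2.33), Trib3 (1.62), Ddit3 (0.95), Cebpg (0.57), Atf3 (0.46) and Eif2ak3 (0.43), while Eif2ak4 fell (-0.24), and Cebpb (-0.20), Eif2ak1 (0.09) and Eif2ak2 (0.07) did not pass the test. Atf4 transcripts therefore differed by medium in the direction of the 4 enzymes both with and without radiation. Translation of Atf4, the step that Gcn2 acts on, is not measured by these data.

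Between IR -SG and -SG, Trib3 (-0.73), Atf4 (-0.59), Atf3 (-0.39), Cebpg (-0.34), Atf5 (-0.32) and Ddit3 (-0.20) fell. Eif2ak3 (0.48), Eif2ak2 (0.39) and Eif2ak4 (0.13) rose, and Cebpb (-0.29) and Eif2ak1 (0.05) did not pass the test. The interaction was negative for 5 regulators, Atf5 (-0.76), Cebpb (-0.59), Atf3 (-0.58), Ddit3 (-0.56) and Trib3 (-0.43), and positive for Eif2ak4 (0.22). Over all tested genes the interaction was negative in 7.17% and positive in 4.2%. It did not pass the test for Atf4 (-0.13, adjusted p = 0.15), Cebpg (-0.14), Eif2ak1 (0.10), Eif2ak2 (-0.20) and Eif2ak3 (-0.21). In the fit without -SG replicate 6, Ddit3 (-0.12, adjusted p = 0.23) and Eif2ak4 (0.09, adjusted p = 0.10) lost their calls between IR -SG and -SG. In the same fit the fall of Eif2ak4 in IR (-0.10, adjusted p = 0.037) and the interaction of Eif2ak2 (-0.27, adjusted p = 0.0062) passed the test. The sign of the interaction in Pycr1, Asns and Aldh18a1 was thus opposite to that in Atf5, Cebpb, Atf3, Ddit3 and Trib3.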

How the data were processed

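RNA was sequenced after removal of ribosomal RNA with a stranded kit. Per the study's methods, FastQC, HISAT2, TopHat and featureCounts took the reads to counts per gene on GRCm38, and the authors scaled those counts with DESeq2 under R 3.3.1. The sources used here give no other version. The deposited values are a signal: counts divided by 1 size factor per library. Whole reads came back from them for 100% of values at a tolerance of 0.001. GENCODE M21 placed 20527 of 20587 gene IDs.

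Log2(normalized count + 1) was fitted by limma 3.58.1 (R 4.3.3; eBayes, intensity trend, 4 groups in one fit, 8 residual degrees of freedom). The 11663 protein-coding genes tested had 10 or more normalized counts in 3 or more libraries, and p-values were adjusted over them by Benjamini-Hochberg with a threshold of 0.05. The steps were tested on simulated data. Alternatives were edgeR 4.0.16 and DESeq2 1.42.0 on recovered reads, other scalings, filters and pseudocounts, the replicate number as a block, and leaving out each library. Descriptions and figures were made in Python 3.11.15. The text names every enzyme in every comparison, tested close relatives and all tested regulators, and per comparison up to 3 genes furthest in each direction of every other list. Closest patterns were the 3 highest Pearson correlations per enzyme, over genes averaging 100 or more normalized counts. Some genes covered by this rule are not reported here and were left out of the lists' counts and medians. The members and lists were chosen with earlier results of these data known. Each enzyme had at least 121 reads in every library.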

Additional observations from a re-analysis of the deposited data

Results flagged for a closer look

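The radiation effect differed between media for 3 of the 8 enzymes by the interaction test. For Pycr1 the log2 fold change after radiation was 0.64 higher without serine and glycine than with them, for Asns 0.42 higher and for Aldh18a1 0.18 higher. The 3 IR -SG libraries of Asns and of Aldh18a1 lay below all 3 -SG libraries, as the IR libraries lay below those of Ctr, so these 2 enzymes fell in both media and by less without the amino acids. The IR -SG libraries of Pycr1 spanned those of -SG.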

How the results depend on the processing

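The counts of enzymes that rose and fell were unchanged under every setting run, apart from the positive interactions, which were 2 in place of 3 where Aldh18a1 lost its call. Of 1168 values of single enzymes under other settings, 1155 kept direction and side of the threshold, 4 lost the call and 9 changed sign, and the cause was not tested. The 4 were the interaction of Aldh18a1: 0.18 with the replicate block (adjusted p = 0.0583), and 0.16 to 0.20 over fits without 1 library (adjusted p = 0.0594 without Ctr replicate 2, 0.0524 without IR replicate 2 and 0.0556 without IR -SG replicate 4). The replicate block was fitted only for IR against Ctr, IR -SG against -SG and the interaction, and it changed no other call there. Deviations of same-numbered libraries, irradiated and not in the same medium, correlated at -0.09 to 0.07, which gave no sign of pairing by number. Pairing between media, where the replicate numbers differ, was not examined. The 9 sign changes were in values that did not pass the test. For IR -SG against Ctr, Glul was 0.0329 with libraries scaled to the same total, and Oat was -0.0062 with DESeq2 and -0.0020 to 0.0334 over fits without 1 library. The interaction of Glul was -0.0056 with the same total, -0.0033 with quantile normalization and -0.0080 to 0.0377 without 1 library. Without -SG replicate 6 no call of the 8 changed. For the 55 genes of the other lists, a setting added after the data were seen, leaving it out lost 3 calls and gained 0 in -SG against Ctr, lost 6 and gained 3 in IR -SG against -SG, and gained 3 in IR against Ctr, 2 in IR -SG against IR and 3 in the interaction. No called gene changed sign. With 3 libraries per group, the intervals of the 8 enzymes' uncalled interactions reach 0.27 on the log2 scale. Those of genes in the other lists can be wider, as for Aldh4a1 (-0.17 to 0.67).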

Other observations

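The genes whose log2 values followed each enzyme most closely over the 12 libraries are given as a description. The libraries share 4 groups, so they are not independent points, and 9595 genes were ranked. Pycr1 was followed most closely by Psph, the last enzyme of serine synthesis (r = 0.995), Tbc1d16 (0.993) and Pck2, mitochondrial phosphoenolpyruvate carboxykinase (0.993). Gpt2 was followed by Psph (0.997), Tbc1d31 (0.994) and Eef2k, a kinase of elongation factor 2 (0.994). Against Ctr, the log2 fold changes of Psph were 1.32 (-SG), -0.35 (IR) and 1.15 (IR -SG), and those of Pck2 were 1.54, -0.61 and 1.28.

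Asns and Aldh18a1 were each other's closest gene (r = 0.997). Next came Bnip3, a mitophagy receptor (0.996), and Fer (0.993) for Asns, and the cysteinyl-tRNA synthetase Cars (0.994) and Pck2 (0.993) for Aldh18a1. Prodh was followed by Cad (0.996), Nle1 (0.996) and Trmt61a (0.996), and Nle1, a ribosome assembly factor, had log2 fold changes of -0.91 (-SG), -0.45 (IR) and -1.40 (IR -SG). Got1 was followed by Ccdc137 (0.988), Pabpc1 (0.987) and Zfp36l2 (0.986). Oat was followed by Arsa, a lysosomal sulfatase (0.991), Tnfrsf10b, a death receptor (0.986), and Fhod1 (0.984), and Glul by Fhod1 (0.982), Vcam1 (0.982) and Cubn (0.981).

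Among the 8, Oat and Glul correlated at r = 0.973 and Prodh and Got1 at 0.961 over the 12 libraries, while Prodh and Oat, the enzymes on either side of the proline intermediate, correlated at 0.293.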
